A study of Rattus norvegicus with 48 samples.

Results

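Mt1, Mt2A and Slc30a2 were followed in 48 RNA sequencing libraries of rat hindlimb muscle. The metallothioneins Mt1 (ENSRNOG00000038047) and Mt2A (ENSRNOG00000043098) and the zinc transporter Slc30a2 (ENSRNOG00000054142) are 3 of the 31998 genes of the deposited count table and 3 of the 1149 that could be paired with a symbol. They were chosen by name after their values in immobilized against control muscle had been seen, so those values are described here without a test. The other comparisons use the same libraries, so tests of them are not fully independent of that choice. All 3 genes passed the filter on low counts, which left 16960 genes.

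The animals were female rats, 14 months old and of generation 19 of 2 lines, LRT and HRT, bred for a low or a high response to endurance training. As the study describes, rats of both lines had completed a treadmill training program earlier in life. Running distance then rose in HRT and was unchanged in LRT. In the HI groups 1 hindlimb was immobilized in a cast for 3 d, and the plantaris and soleus of that limb were taken. The CTRL groups were rats of the same line without a cast, so the comparison is between rats and not between the limbs of a rat. The methods of the study also describe an injection of puromycin, a label of new protein, before the muscles were taken, and isoflurane anaesthesia. Muscle, line and treatment made up 8 groups with 6 libraries in each, and the libraries had totals of 26.8 to 36.4 M estimated counts (median 30.4 M). The labelled muscles matched their markers. All 9 genes of the fast fibre list were higher in plantaris than in soleus of CTRL rats in both lines, and 3 of the 4 genes of the slow fibre list were lower (edgeR adjusted p under 0.05). Over all genes tested 17% were higher in plantaris in LRT and 18.9% in HRT, and 15.6% and 19.9% were lower. The mean RNA integrity number (RIN) of a group was between 8.02 in LRT HI soleus and 8.38 in the HI plantaris of both lines, and RIN was a covariate in the fit.

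Metallothioneins are small cysteine-rich proteins that bind zinc and copper and hold them in the cytoplasm. Their genes are switched on by the zinc-sensing factor Mtf1, which binds metal response elements (MREs) in their promoters, and also by glucocorticoids and oxidative stress, and they are known to rise in wasting muscle. Slc30a2 encodes ZnT2, a transporter of the zinc efflux family that moves zinc out of the cytoplasm into vesicles and lysosomes, best known from the secretory cells of the mammary gland, pancreas and prostate. Its gene can also respond to zinc through Mtf1.

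The promoters are shown because the genes share a known response to zinc. The sequences are the 250 bases before the start site in RefSeq (GRCr8), printed 5′ to 3′ on the strand of the gene, and capitals mark each match to the MRE core, written as TGCACNC or TGCGCNC and searched on both strands. All 3 members were matched by symbol. The study's gene table gives the entry counted as Mt1 the gene ID of RefSeq Mt1 but places it on a chromosome other than that of the RefSeq locus, so the Mt1 promoter printed here may not be that of the counted entry. All values given for Mt1 are those of that entry, which may be another copy of the gene. RefSeq lists Mt1, Mt2A and the related Mt3 in consecutive entries of chromosome 19. Mt1 (chr19:10832976-10833225, minus strand) and Mt2A (chr19:10838709-10838958, minus strand) come first, followed by the first start site of Slc30a2 (chr5:151843201-151843450, plus strand).
Mt1: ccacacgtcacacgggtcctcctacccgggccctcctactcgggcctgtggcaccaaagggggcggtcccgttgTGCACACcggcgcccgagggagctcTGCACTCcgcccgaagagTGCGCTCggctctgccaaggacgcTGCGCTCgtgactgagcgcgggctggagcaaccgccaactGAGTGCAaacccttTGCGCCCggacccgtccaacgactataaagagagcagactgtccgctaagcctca
Mt2A: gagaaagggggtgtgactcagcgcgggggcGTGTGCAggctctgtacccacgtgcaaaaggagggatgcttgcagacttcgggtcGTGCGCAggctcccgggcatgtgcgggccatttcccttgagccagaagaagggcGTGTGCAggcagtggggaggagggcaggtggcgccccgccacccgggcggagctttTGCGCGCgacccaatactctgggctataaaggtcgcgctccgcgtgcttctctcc
Slc30a2: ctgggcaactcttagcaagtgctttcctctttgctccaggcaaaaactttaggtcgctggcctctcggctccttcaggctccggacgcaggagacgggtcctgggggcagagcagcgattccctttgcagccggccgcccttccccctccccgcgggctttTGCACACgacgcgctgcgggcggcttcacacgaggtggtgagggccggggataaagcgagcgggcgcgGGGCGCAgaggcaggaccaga

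The Mt1 promoter held 6 matches to the MRE core, and 0.0269% of 33469 promoters of the same length held at least 6. The Mt2A promoter held 4, a number reached by 0.266% of promoters. Slc30a2 had 2 matches before its first start site, a number reached by 4.9% of promoters, and 0 before its second (chr5:151843931-151844180, plus strand). The Mt3 promoter held 3, a number reached by 1.17%. The letters TGACNNNGC of the antioxidant response element, which Nrf2 binds, were found once on either strand in Mt1 and in Mt2A and in 10.1% of all promoters, and were not in either window of Slc30a2. The printed windows of Mt1, Mt2A and Slc30a2 were 66.4%, 66.0% and 66.4% G or C. The shares are over all promoters and were not matched for base content, which affects how often such letters occur. A match is a run of letters and was not tested as a binding site. Reads from near-identical metallothionein copies could have been split between entries.

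Mt1 was higher in HI than in CTRL in both muscles and both lines, from a level in CTRL that rested on few counts. Values are in CPM, the estimated count scaled by the normalized size of the library. In plantaris of LRT the CTRL libraries ran from 0.381 to 1.81 CPM (median 0.668) and the HI libraries from 3.74 to 6.81 (median 4.53). In plantaris of HRT the ranges were 0.378 to 0.931 (median 0.542) in CTRL and 1.31 to 4.11 (median 2.34) in HI. No HI library of either line overlapped with its CTRL group. In soleus of LRT the CTRL libraries ran from 0.298 to 0.909 CPM (median 0.658) and the HI libraries from 1.27 to 7.55 (median 2.49). In soleus of HRT they ran from 0.418 to 0.867 (median 0.519) in CTRL and from 1.67 to 6.84 (median 3.07) in HI. Here too every HI library lay above every CTRL library of its line. The log2 fold change of Mt1 was 2.62 (SE 0.38) in LRT and 2.15 (SE 0.39) in HRT plantaris, and 2.29 (SE 0.38) in LRT and 2.60 (SE 0.39) in HRT soleus. A CTRL library held between 8.0 and 50.2 estimated counts of Mt1.

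Mt2A was also higher in HI in all 4 comparisons, with the highest mean in the plantaris of LRT. In plantaris of LRT the CTRL libraries ran from 1.94 to 4.59 CPM (median 2.73) and the HI libraries from 10.8 to 24.8 (median 13.5). In plantaris of HRT they ran from 0.944 to 2.30 (median 1.46) in CTRL and from 3.22 to 13.7 (median 9.39) in HI. In plantaris the groups did not overlap in either line. In soleus of LRT the CTRL libraries ran from 1.19 to 2.02 CPM (median 1.51) and the HI libraries from 2.58 to 18.8 (median 2.88). The highest of these, replicate 5, was followed by a library at 4.50. Without it the log2 fold change of 1.86 (SE 0.45) in LRT soleus was 0.97. In soleus of HRT the CTRL libraries ran from 1.02 to 2.32 (median 1.66) and the HI libraries from 1.64 to 10 (median 4.99). Of these HI libraries 4 of 6 lay above every CTRL library, while replicates 1 and 2, at 1.64 and 1.94 CPM, lay within the CTRL range. The log2 fold change of Mt2A was 2.31 (SE 0.44) in LRT and 2.43 (SE 0.46) in HRT plantaris, and 1.77 (SE 0.46) in HRT soleus.

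Slc30a2 had the largest fitted fold change of the 3 genes in LRT plantaris, and a wide spread between the HI libraries of both lines. In plantaris of LRT the CTRL libraries ran from 0.21 to 0.82 CPM (median 0.394), and the HI libraries were at 31.4, 1.80, 22.7, 14.9, 1.34 and 1.75 for replicates 1 to 6. In plantaris of HRT the CTRL libraries ran from 0.135 to 1.16 (median 0.404), and the HI libraries were at 11.3, 1.88, 1.43, 7.98, 1.78 and 1.47. All 12 HI libraries lay above the CTRL range of their line, but they fell into separate sets, with 7 libraries at 1.34 to 1.88 and 5 libraries at 7.98 to 31.4. In soleus of LRT the CTRL libraries ran from 0.454 to 3.85 CPM (median 1.79), and the HI libraries were at 13.7, 5.18, 15.5, 14.2, 3.66 and 3.51. The 2 lowest of them lay within the CTRL range, so 4 of 6 were above every CTRL library. In soleus of HRT the CTRL libraries ran from 2.0 to 4.14 (median 3.67) and the HI libraries from 4.51 to 16.6 (median 7.33), without overlap. The log2 fold change of Slc30a2 was 4.65 (SE 0.72) in LRT and 3.03 (SE 0.73) in HRT plantaris, and 2.28 (SE 0.63) in LRT and 1.38 (SE 0.60) in HRT soleus. The LRT plantaris value was 4.06 without the HI library of replicate 1, and 3.78 in limma-voom. A mean over the plantaris HI libraries, 12.3 ± 12.8 CPM in LRT and 4.30 ± 4.25 in HRT (SD, n = 6), lies between the sets.

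**Figure D1:**
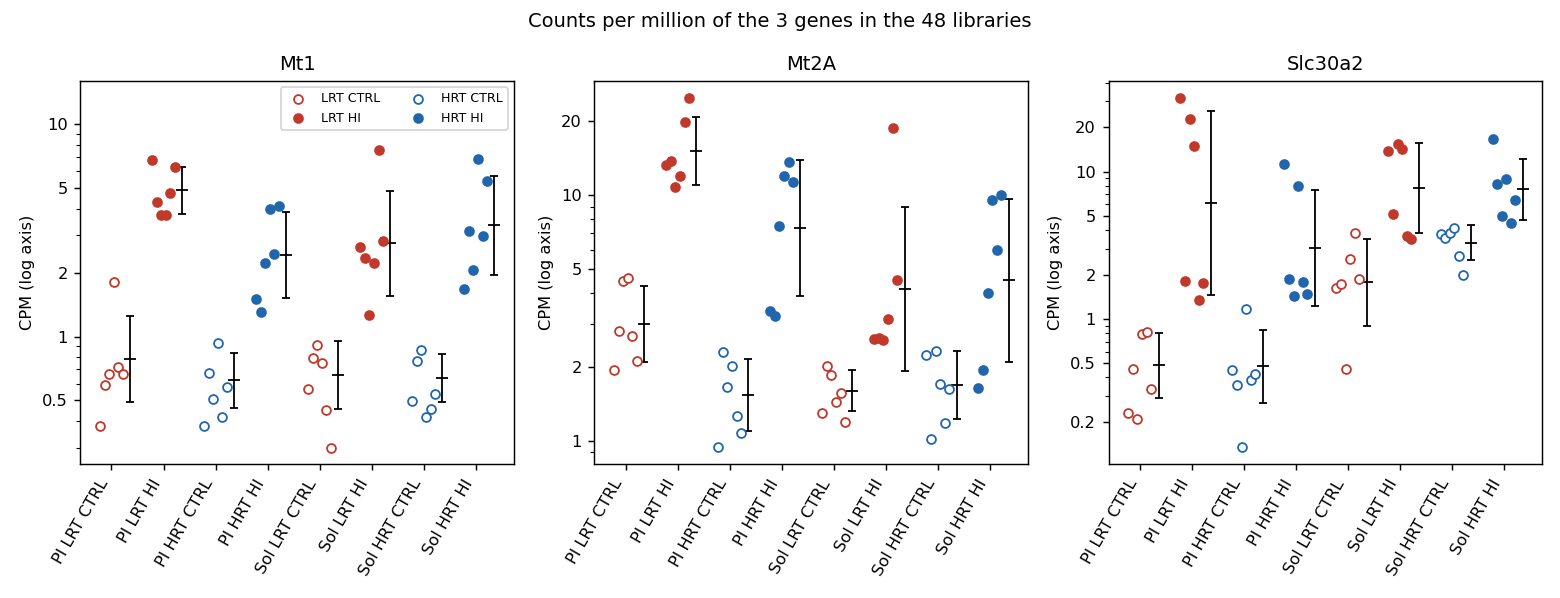
CPM (log axis) of Mt1, Mt2A and Slc30a2 in each library by group, with 6 libraries a group, LRT in red, HRT in blue, CTRL as open and HI as filled points (Pl, plantaris; Sol, soleus). The black bar is the mean of log2 CPM with its SD. The HI points of Slc30a2 in plantaris leave a gap between 1.88 and 7.98 CPM.

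The HI libraries lay above every CTRL library in 10 of the 12 cases of gene, muscle and line. Over all genes tested this held for 4.69% in LRT plantaris, 3.27% in HRT plantaris, 1.79% in LRT soleus and 2.25% in HRT soleus, and for 14 genes (0.0825%) in all 4 comparisons, of which Mt1 is 1. A log2 fold change over 1 with an adjusted p under 0.05 was reached upward by 2.75%, 0.908%, 1.42% and 1.46% of the tested genes in the same order. Because the members were chosen on these comparisons, nothing is read from their place among the genes. Over the whole set of tested genes the median fold change, in log2, was 0.01 to 0.02 in the 4 comparisons.

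**Figure D2:**
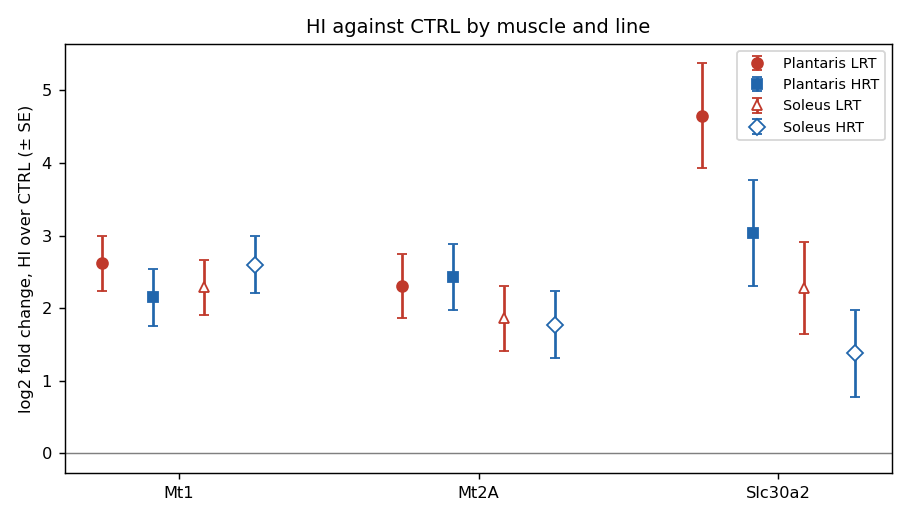
Log2 fold change of HI over CTRL (vertical axis) with its SE for each gene, from the fit over all 48 libraries. Filled symbols are plantaris and open symbols soleus, LRT in red and HRT in blue. Slc30a2 runs from 4.65 in LRT plantaris to 1.38 in HRT soleus, and Mt1 from 2.15 to 2.62.

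In the order of mean levels, the HI groups of Mt1 and Mt2A stood above all of their CTRL groups. For Mt1 the order was LRT plantaris HI at 4.95 ± 1.32 CPM (SD, n = 6), HRT soleus HI at 3.68 ± 2.02, LRT soleus HI at 3.14 ± 2.23 and HRT plantaris HI at 2.59 ± 1.20, followed by the CTRL groups between 0.806 ± 0.505 and 0.581 ± 0.202. For Mt2A it was LRT plantaris HI at 15.8 ± 5.41, HRT plantaris HI at 8.51 ± 4.51, LRT soleus HI at 5.71 ± 6.46 and HRT soleus HI at 5.52 ± 3.66, followed by LRT plantaris CTRL at 3.10 ± 1.16 and the other CTRL groups between 1.68 ± 0.535 and 1.54 ± 0.541. For Slc30a2 the soleus CTRL groups, at 3.33 ± 0.820 in HRT and 2.01 ± 1.13 in LRT, came just below the plantaris HI group of HRT, whose mean of 4.30 rested on replicates 1 and 4, with the other libraries at 1.43 to 1.88. Its plantaris CTRL groups were the lowest, at 0.485 ± 0.348 in HRT and 0.474 ± 0.273 in LRT. For each gene, every pair of neighbouring groups in the order overlapped in range.

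Without a cast, Slc30a2 was lower in plantaris than in soleus. The genes were not chosen on this comparison, but its CTRL libraries are part of the comparisons that were used. A low CTRL level in plantaris enters both, so the test is not independent of the choice. The log2 difference of plantaris minus soleus was -2.13 (95% interval -3.60 to -0.67; edgeR quasi-likelihood test, Benjamini-Hochberg adjusted p = 0.024) in LRT and -2.78 (-4.19 to -1.38; adjusted p = 0.0017) in HRT, a level in plantaris of 0.228 and 0.145 times that in soleus. In HRT all 6 plantaris libraries lay below all 6 soleus libraries, the highest in plantaris being at 1.16 and the lowest in soleus at 2.0 CPM. In LRT the lowest soleus library, replicate 3 at 0.454 CPM, lay among the plantaris libraries, while plantaris was below soleus in 6 of 6 same-numbered LRT pairs. The muscles differed in many genes: 32.6% of all genes tested passed in LRT and 38.8% in HRT, with 15.6% and 19.9% lower in plantaris. The LRT difference passed in each alternative fit over all libraries (adjusted p of 0.00027 to 0.031), the lowest being that of edgeR with same-numbered libraries as pairs. In the unpaired edgeR fit its adjusted p ran from 0.016 to 0.067 when each library was left out in turn, and it was above 0.05 without plantaris LRT CTRL replicate 1 or 3 or soleus LRT CTRL replicate 4 or 5, with log2 differences between -2.33 and -1.83. In bulk muscle, fewer cells of a type and less RNA per cell cannot be told apart.

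For the metallothioneins the difference between muscles did not pass in the unpaired test. Mt1 had a log2 difference of 0.36 (95% interval -0.45 to 1.17; edgeR adjusted p = 0.56) in LRT and -0.02 (-0.85 to 0.81; adjusted p = 0.97) in HRT. Mt2A had 0.94 (0.03 to 1.85; adjusted p = 0.12) in LRT and -0.14 (-1.07 to 0.78; adjusted p = 0.84) in HRT. The 95% intervals hold 0 except that of Mt2A in LRT, which did not pass after adjustment over all genes. It passed when same-numbered libraries were taken as pairs, with a log2 difference of 0.90 (edgeR with a replicate block by rat, adjusted p = 0.016).

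Between the lines in CTRL muscle, the largest difference was that of Mt2A in plantaris. The mean of Mt2A was 3.10 CPM in LRT and 1.54 in HRT plantaris, a log2 difference of 1.00 (95% interval 0.10 to 1.90; edgeR adjusted p = 0.41), and it did not pass after adjustment over all genes. The ranges of the lines overlapped, with LRT from 1.94 and HRT up to 2.30 CPM. For Mt1 the same difference was 0.46 (-0.35 to 1.28; adjusted p = 0.75), and for Slc30a2 it was -0.05 (-1.71 to 1.60; adjusted p = 0.99). In soleus the differences of Mt1 and Mt2A were 0.08 (-0.74 to 0.90) and -0.09 (-1.0 to 0.83), each with an adjusted p of 0.96, and that of Slc30a2 was -0.71 (-1.91 to 0.50; adjusted p = 0.63). In these comparisons 0.525% of all tested genes passed in plantaris and 1.45% in soleus.

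The response to HI was not shown to differ between the lines for any of the 3 genes. The difference of the log2 fold changes, LRT minus HRT and named DELTA, was 1.62 (95% interval -0.41 to 3.65; edgeR adjusted p = 0.82) for Slc30a2 in plantaris and 0.90 (-0.73 to 2.53; adjusted p = 0.77) in soleus. The plantaris value was 0.96 in limma-voom and ran from 1.07, without the LRT HI library of replicate 1, to 2.14. The intervals reach from a smaller response in LRT to a response several times larger. For Mt1 DELTA was 0.47 (-0.59 to 1.53; adjusted p = 0.91) in plantaris and -0.32 (-1.37 to 0.74; adjusted p = 0.90) in soleus. Mt2A had a DELTA of -0.12 (-1.31 to 1.06) in plantaris and in soleus of 0.09 (-1.15 to 1.33), each with an adjusted p of 0.98. Over all genes edgeR called 0 DELTA genes in plantaris, where 6.25% had an unadjusted p under 0.05, limma-voom called 2 and DESeq2 called 6. In soleus edgeR called 5 (0.0295%), limma-voom 5 and DESeq2 35, and edgeR called 11 with a minimum of 10 counts in every library and 0 with soleus fitted alone.

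Nor did the difference in response between the muscles pass the test. For Slc30a2 the log2 fold change in plantaris exceeded that in soleus by 2.37 (95% interval 0.51 to 4.24; edgeR adjusted p = 0.16) in LRT and by 1.65 (-0.25 to 3.56; adjusted p = 0.50) in HRT. The LRT value failed the adjustment over all genes, in which 2.18% passed, against 0.0943% in HRT. It was 1.70 (adjusted p = 0.056) in edgeR with same-numbered libraries as pairs, 1.59 in limma-voom and 1.74 without the HI plantaris library of LRT replicate 1. With pairs 1279 genes passed in LRT in place of 370, and 129 in HRT in place of 16. The adjusted p of the metallothioneins in the same comparison ran from 0.72 to 0.80, and their differences from -0.45 for Mt1 in HRT to 0.66 for Mt2A in HRT. Without the LRT HI soleus library of replicate 5 the difference of Mt2A in LRT was 1.39 (edgeR adjusted p = 0.14) in place of 0.44.

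Mt1 and Mt2A moved together from library to library. After the mean of each group was subtracted from log2 CPM, r between Mt1 and Mt2A was 0.76 in plantaris (Spearman rho 0.79, n = 24 libraries, permutation test within groups, adjusted p = 0.00076 for r and 0.00081 for rho over 9 relations). It was 0.75 without the 2 libraries farthest from the median of Mt1. Within plantaris it was 0.72 over the 12 CTRL libraries and 0.81 over the 12 HI libraries. In soleus r was 0.76 (rho 0.61, n = 24, permutation test, adjusted p = 0.0023 for r and 0.014 for rho), and 0.57 without the 2 farthest. The soleus value came mainly from the HI libraries, where r was 0.86, against 0.34 in CTRL. Over all 48 libraries Mt2A was the gene closest to Mt1 among 16959 (r = 0.87), and Mt1 the closest to Mt2A. With group means subtracted Mt2A was again first for Mt1 and Mt1 second for Mt2A (r = 0.76).

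**Figure D3:**
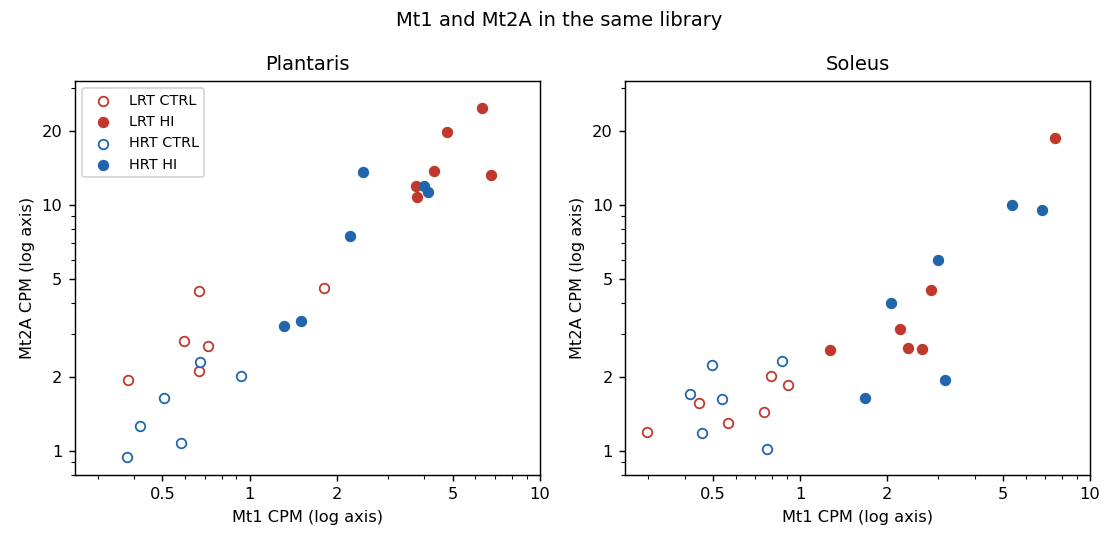
Mt1 against Mt2A in CPM (both log axes) in the same library, plantaris on the left and soleus on the right. Each point is a library, LRT in red, HRT in blue, CTRL open and HI filled. Libraries high in Mt1 were high in Mt2A, with r = 0.76 after group means were subtracted in each muscle.

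The mean share of Mt1 in the summed counts of Mt1 and Mt2A was higher in the HI soleus groups than in the other groups. It was 39.9% ± 8.2 (SD, n = 6) in LRT HI and 42.7% ± 11.5 in HRT HI soleus. The CTRL soleus groups were at 28.1% ± 5.8 in LRT and 26.8% ± 8.9 in HRT. In plantaris the share was 24.5% ± 5.2 in LRT HI and 20.0% ± 5.6 in LRT CTRL, and 24.9% ± 5.5 in HRT HI and 27.7% ± 5.0 in HRT CTRL. The HI soleus libraries ran from 28.7% to 62.0% and the CTRL soleus libraries from 18.3% to 43.1%, so the ranges overlapped, and in plantaris HI and CTRL differed by less than their SDs. No test was made. The values carry no correction for gene length and say nothing of which transcript was more abundant.

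**Figure D4:**
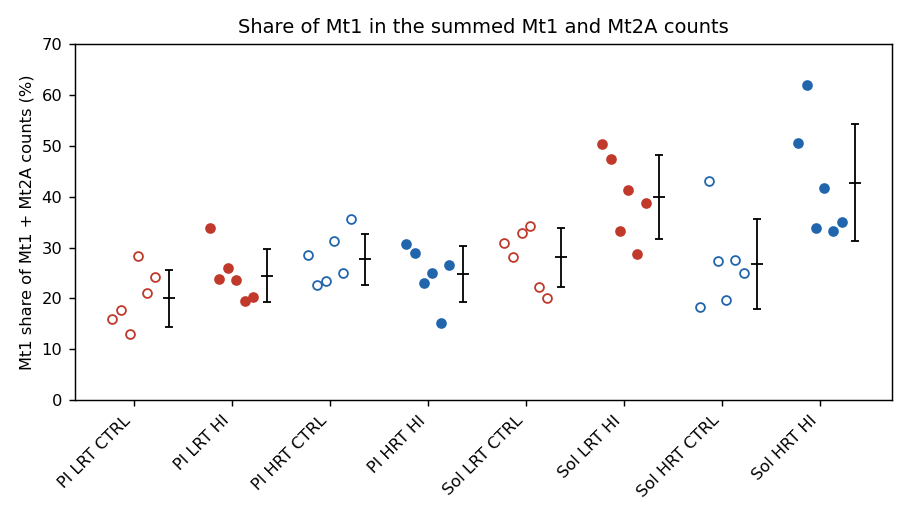
Share of Mt1 in the summed estimated counts of Mt1 and Mt2A (percent, from 0) in each library, with the mean and SD of the group as a black bar (n = 6). LRT is red, HRT blue, CTRL open and HI filled. The HI soleus groups have means of 39.9% and 42.7%, and the other groups 20.0% to 28.1%.

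The HI libraries with the highest Slc30a2 were not always those with the highest metallothioneins. In LRT plantaris, replicates 5 and 6 had the highest Mt2A of the HI group, at 19.8 and 24.8 CPM, and Slc30a2 at 1.34 and 1.75. Replicate 3 had the lowest Mt2A, at 10.8, and Slc30a2 at 22.7. In LRT soleus, replicate 5 stood far above the group in Mt2A, at 18.8 CPM, while its Slc30a2 was 3.66, within the CTRL range. Replicate 1 of LRT plantaris was high in both, with Mt1 at 6.81 and Slc30a2 at 31.4 CPM. Since the HI values of Slc30a2 fall into separate sets, its correlations with single genes are given mainly within CTRL libraries. Counts and ranges of r over libraries that include those sets stand below as a description. Over the 24 libraries of a muscle, r with Slc30a2 was 0.14 for Mt1 and -0.27 for Mt2A in plantaris, and -0.43 for each in soleus. The adjusted p of r ran from 0.076 to 0.50 (permutation test within groups). Within HI libraries these r ran from -0.58 to -0.07. Within the 12 CTRL libraries r between Mt1 and Slc30a2 was 0.61 in plantaris (rho 0.43, permutation test, adjusted p = 0.14 for r and 0.56 for rho), and 0.20 without the 2 libraries farthest from the median. In soleus it was -0.34 (rho -0.29, permutation test, adjusted p = 0.68 and 0.73). Over the same libraries Mt2A and Slc30a2 had r of 0.17 in plantaris and, in soleus, of -0.08 (rho 0.08 and 0.18, permutation test, adjusted p of r = 0.88 in each).

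The high and low values of Slc30a2 recurred between the muscles under the same replicate number. The labels do not say that a number marks the same rat in both muscles. In LRT HI, replicates 1, 3 and 4 were the high plantaris libraries, and their soleus libraries were at 13.7, 15.5 and 14.2 CPM against at most 5.18 in the rest. In HRT HI, replicates 1 and 4 were the high plantaris libraries, and their soleus libraries were at 16.6 and 8.97 against at most 8.25. So 5 of 5 numbers with high Slc30a2 in plantaris were above the other numbers of their group in soleus. This count was not made for other genes. The split was not particular to Slc30a2. The same 5 plantaris libraries were the highest HI libraries of Ube2o, at 56.4 CPM or more against at most 45.9 in the rest. They were also the highest of Blvrb, at 28.4 or more against at most 25.7. Both genes were picked below for their likeness to Slc30a2. In CTRL libraries the same-numbered r was 0.53 (rho 0.57, n = 12 pairs, permutation test, adjusted p = 0.18 for r and 0.34 for rho). Mt2A had a same-numbered r of 0.60 (rho 0.59, n = 24 pairs, permutation test, adjusted p = 0.021 and 0.019), made up of 0.79 in HI and -0.05 in CTRL, and 0.54 without the 2 pairs farthest from the median. For Mt1 it was 0.39 (rho 0.38, n = 24, permutation test, adjusted p = 0.10 and 0.15). The median same-numbered r of all tested genes was 0.23, with 9.81% of genes at least as high as Mt2A and 30.3% at least as high as Mt1. For Slc30a2 it was 0.79 over all 24 pairs, which include the separate sets, and 1.64% of genes were at least as high.

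**Figure D5:**
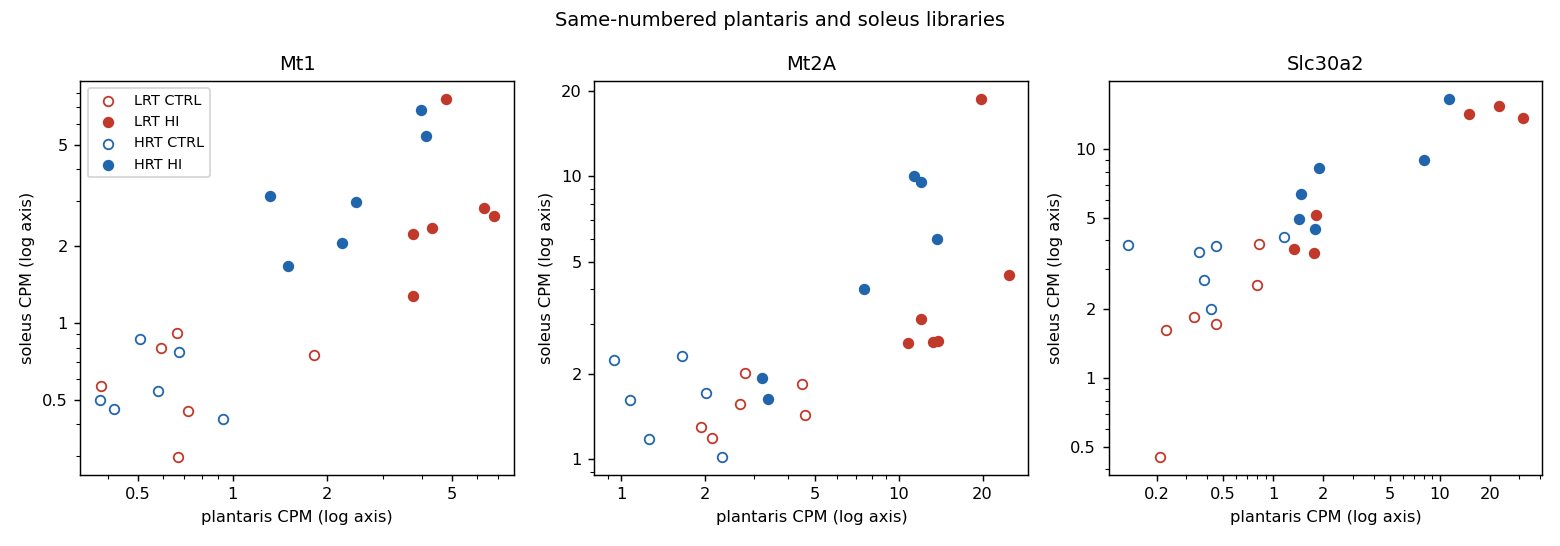
CPM in plantaris (horizontal) against soleus (vertical) of same-numbered libraries, both on log axes, for Mt1, Mt2A and Slc30a2. Each point is a pair, LRT in red, HRT in blue, CTRL open and HI filled. The 5 pairs at the upper right of the Slc30a2 panel are LRT HI replicates 1, 3 and 4 and HRT HI replicates 1 and 4.

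The genes whose pattern was most like that of each member were taken by the highest r of log2 CPM over the 48 libraries, among genes with a symbol. All 48 points differ in muscle and treatment, so r within the 24 CTRL libraries, group means subtracted, is given beside each. For Mt1 they were Fmo2 (r = 0.82, and 0.20 within CTRL), a flavin monooxygenase, Fosb (0.81 and 0.04), an AP-1 transcription factor, and Rgs1 (0.80 and 0.44), a regulator of G protein signalling. For Mt2A they were Pim3 (0.73 and 0.22), a kinase, Il6r (0.72 and 0.32), the interleukin 6 receptor, and Galnt15 (0.72 and 0.56). For Slc30a2, given by the r within CTRL only, they were Blvrb (0.57), a biliverdin reductase, Ube2o (0.34), a ubiquitin-conjugating enzyme, and Sgsm2 (0.38). With group means subtracted, the genes most like Mt1 included Rgs1 (0.59) and Has1 (0.57, and 0.41 within CTRL), a hyaluronan synthase, and those most like Mt2A included Slc9a3r2 (0.72 and 0.34) and Gpx1 (0.63 and 0.12). Slc30a2 was then most like Rnf207 (0.56 within CTRL), Blvrb and Ube2o.

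Other genes of metal and heme handling changed in both directions. The list of 8 was drawn from genes that the study called in these libraries, as were the lists below, so their direction is not independent evidence. In HI against CTRL, 3 rose and 2 fell in LRT plantaris, 3 rose and 2 fell in HRT plantaris, 1 rose and 1 fell in LRT soleus, and 2 rose and 2 fell in HRT soleus (edgeR adjusted p under 0.05). Over all genes tested, 15.1%, 5.11%, 7.36% and 7.95% rose by the same rule and 13.6%, 5.85%, 6.58% and 8.23% fell. The list medians of log2 fold change were 0.03, 0.30, 0.36 and 0.17. Hmox1, the heme oxygenase that is induced by stress, rose by 2.70 (SE 0.45, edgeR adjusted p = 3.7e-05) in LRT and by 1.95 (SE 0.45, adjusted p = 0.0056) in HRT plantaris. The HRT plantaris HI libraries of Hmox1 ran from 4.34 to 46.4 CPM, against 2.97 to 4.13 in CTRL. Their mean of 13.0 ± 16.5 CPM (SD, n = 6) rested largely on the highest library. Slc31a2, a copper transporter, rose by 1.09 (SE 0.17) in LRT and 0.52 (SE 0.17) in HRT plantaris. Slc25a28, the mitochondrial iron importer mitoferrin 2, rose by 1.08 (SE 0.17) in LRT and 0.97 (SE 0.17) in HRT soleus. Tfrc, the transferrin receptor for iron uptake, fell by 2.38 (SE 0.28) in LRT and by 1.69 (SE 0.27) in HRT plantaris and by 1.26 (SE 0.27) in LRT soleus. Alas1, the first enzyme of heme synthesis, fell in both plantaris groups and in HRT soleus.

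Mt3, the third metallothionein gene of the locus and best known from brain, did not rise in any comparison. Its log2 fold change was -0.92 (SE 0.47, edgeR adjusted p = 0.14) in LRT plantaris, -1.19 (SE 0.48, adjusted p = 0.094) in HRT plantaris and -0.12 (SE 0.41, adjusted p = 0.89) in LRT soleus. In HRT soleus Mt3 fell by 2.09 (SE 0.44, edgeR adjusted p = 0.0013), from 2.99 ± 3.74 to 0.502 ± 0.226 CPM (SD, n = 6). The CTRL mean there rested on replicate 1 at 10.3 CPM, and without it was 1.53.

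The list of Nrf2 targets and partners, genes of the antioxidant response, had more members that rose in plantaris than in soleus. These counts were not tested against each other. Of its 13 genes 12 rose and 1 fell in LRT plantaris (median log2 fold change 1.35), 9 rose and 0 fell in HRT plantaris (0.89), 3 rose in LRT soleus (0.62) and 1 rose in HRT soleus (0.11). Over all genes tested 15.1%, 5.11%, 7.36% and 7.95% rose and 13.6%, 5.85%, 6.58% and 8.23% fell. Gene by gene, few of the 13 differed in response between the muscles. In LRT 1 was higher and 1 lower in plantaris, and in HRT 0 were higher and 1 lower (edgeR adjusted p under 0.05). Of all genes tested 2.18% passed in that comparison in LRT and 0.0943% in HRT. Srxn1, which reduces oxidized peroxiredoxin, rose by 2.99 (SE 0.49, edgeR adjusted p = 3.1e-05) in LRT and 1.84 (SE 0.50, adjusted p = 0.014) in HRT plantaris. Its values in soleus were 0.64 (SE 0.48) and 0.05 (SE 0.48). The HRT plantaris HI libraries of Srxn1 ran from 0.852 to 9.72 CPM and overlapped with CTRL, at 0.708 to 1.08. Their mean of 3.06 ± 3.38 CPM (SD, n = 6) rested largely on the highest library. Gclm, a subunit of the rate-limiting enzyme of glutathione synthesis, rose by 1.23 (SE 0.29) in LRT plantaris, 0.96 (SE 0.30) in HRT plantaris and 1.11 (SE 0.30) in LRT soleus. The 1 gene that fell was Glrx, glutaredoxin, with -0.75 (SE 0.20) in LRT plantaris, and it was the gene that rose in HRT soleus. Across the 48 libraries with group means subtracted, r with Mt1 and with Mt2A was over 0.5 for 0 of the 13 genes, against 1.13% and 2.34% of all genes tested. With Slc30a2 it was over 0.5 for 10 of 13, against 5.74% of all genes, over libraries that include the 5 that stand apart in plantaris. Within the 24 CTRL libraries r with Slc30a2 was over 0.5 for 1 of 13, against 1.37%.

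Antioxidant enzymes and glucocorticoid-induced genes are known to change with the metallothioneins in muscle wasting. Of 6 antioxidant enzymes 2 rose and 2 fell in LRT plantaris, 0 rose and 1 fell in HRT plantaris, 2 rose and 2 fell in LRT soleus, and 1 rose and 2 fell in HRT soleus. Over all genes tested 15.1%, 5.11%, 7.36% and 7.95% rose and 13.6%, 5.85%, 6.58% and 8.23% fell, and the same shares stand beside the next list. Gpx1, a glutathione peroxidase, fell in all 4 comparisons, by 0.87 (SE 0.33) to 1.20 (SE 0.33). Gpx3, the secreted form, rose by 1.02 (SE 0.25) in LRT plantaris, 1.01 (SE 0.25) in LRT soleus and 0.80 (SE 0.26) in HRT soleus. Of the 6 genes known to be induced by glucocorticoids in muscle, 4 rose in each plantaris comparison, 2 rose and 1 fell in LRT soleus and 1 rose in HRT soleus. Foxo1, a transcription factor of the atrophy program, rose by 1.15 (SE 0.24) in LRT and 1.12 (SE 0.25) in HRT plantaris. Pik3r1, a regulatory subunit of PI3 kinase, rose in HRT plantaris and in both soleus groups, by 0.68 (SE 0.21) in LRT and 1.25 (SE 0.21) in HRT soleus.

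Markers of other cells moved with HI in some of the same groups, and their part in the values of the 3 genes was not tested. Of 6 macrophage and other myeloid markers 2 rose in LRT plantaris, 2 in HRT plantaris, 1 in LRT soleus and 5 in HRT soleus, where 15.1%, 5.11%, 7.36% and 7.95% of all genes tested rose. The summed myeloid level was 8.89 to 11.1 CPM in LRT plantaris CTRL and 17.1 to 169.2 in HI, and 13.5 to 25.9 in HRT soleus CTRL and 18.8 to 50.2 in HI. Most of the sum in LRT plantaris was Gpnmb, a glycoprotein of macrophages and other cells, at 4.87 ± 1.46 CPM in CTRL and 67.5 ± 64.7 in HI (SD, n = 6). The highest mean of the other 5 markers in that HI group was 2.13 CPM, that of Ccl2. The 6 red blood cell markers, hemoglobins with Alas2 and Slc4a1, rose in HRT soleus, 6 of 6, and 0 of 6 passed in each of the other comparisons. Their sum in HRT soleus ran from 163.5 to 611.4 CPM in CTRL and from 224.3 to 10598.4 in HI. The highest was replicate 5, followed by a library at 1557.9, and the HI median was 1156.5 against 296.9 in CTRL. All 6 fibroblast markers fell in LRT plantaris, 5 in HRT plantaris, 0 in LRT soleus and 3 in HRT soleus, where 13.6%, 5.85%, 6.58% and 8.23% of all genes fell. Of 4 adipocyte markers 2 rose and 2 fell in LRT plantaris, 1 rose in HRT plantaris, and 0 passed in either soleus comparison. Of 2 muscle progenitor markers 1 rose in LRT plantaris and 1 in HRT soleus. The shares of all genes are those given above. With group means subtracted over 48 libraries, r with the red blood cell markers ran from -0.01 to 0.13 for Mt1 and from 0.01 to 0.29 for Mt2A. With the myeloid markers it ran from 0.18 to 0.51 for Mt1 and from -0.15 to 0.39 for Mt2A. For Slc30a2, over libraries that include those that stand apart, r ran from -0.23 to -0.05 with the red blood cell and from -0.14 to 0.48 with the myeloid markers. With the adipocyte markers it was over 0.5 for 2 of 4, against 5.74% of all genes, and within CTRL libraries for 0 of 4, against 1.37%. Of the fast fibre list 6 of 9 genes fell in LRT plantaris and 2 of 9 in HRT plantaris, and of the slow fibre list 2 of 4 and 0 of 4, where 13.6% and 5.85% of all genes fell. In the other direction, 1 of 4 slow fibre genes rose in HRT plantaris and 1 of 4 in HRT soleus. Of the fast fibre genes 2 of 9 rose in LRT and 1 of 9 in HRT soleus, and 0 of either list fell in soleus. The shares of all genes that rose are given above. The r with Slc30a2 was under -0.5 for 5 of the 9 fast and 3 of the 4 slow fibre genes, against 5.47% of all genes, over the libraries that include those that stand apart. Within the 24 CTRL libraries it ran from -0.46 to 0.24 over the same lists. No marker was at 0 in a whole group.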

How the data were processed

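The deposited table holds estimated counts of each gene, which the authors made with Salmon 0.9.1 against Ensembl release 91 of Rnor_6.0 and summed with tximport, with length-scaled abundances and no normalization between libraries. Of these values 66.0% were not whole, and they were rounded. Symbols were taken from the identifier and symbol columns of the 4 DEG tables of the study, whose fold changes and p-values were not used. The members, lists and tests were chosen with earlier results of these data known.

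Genes were kept by filterByExpr, libraries scaled by TMM, and all 48 fitted in edgeR 4.0.16 (R 4.3.3) with the 8 groups and RIN as terms. The quasi-likelihood test was adjusted by Benjamini-Hochberg over 16960 genes. CPM use the scaled library sizes. Standard errors come from the fold change and F. Replicates were separate rats within a group. Plantaris and soleus libraries were treated as independent. Correlations used log2 CPM with a prior count of 2, group means subtracted, and 100000 permutations within groups. Genes described were the 3 members, for each the 3 genes most like it by r in each of the measures, and list genes that passed in any HI against CTRL comparison. A gene that this rule names is not reported here. The chain was tested on simulated data with 200 genes changed in LRT plantaris HI. In HI against CTRL edgeR recovered 87.0% of them, limma-voom 86.0% and DESeq2 88.0%. Of their calls 1.7%, 6.0% and 9.3% were false. For DELTA in plantaris they recovered 73.0%, 74.0% and 77.5%, and 3.3%, 4.5% and 7.7% of calls were false.

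Alternatives were limma-voom 3.58.1, DESeq2 1.42.0, its size factors, library totals, no RIN, other filters (any count, or a minimum of 10 counts throughout), muscles fitted separately, a replicate block, and leaving out each replicate number or library. A prior count of 0.5 was tried for correlations. Values within CTRL libraries were added after the data were seen. Intervals cover the fitted spread between libraries. Python 3.11.15 (scipy 1.17.1, numpy 2.4.6) was used, figures being drawn in matplotlib 3.10.9. Positions in Rnor_6.0 were not used here.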

Additional observations from a re-analysis of the deposited data

Results flagged for a closer look

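In 5 of 32 tested groups of 6 libraries, the highest library stood apart from the rest by Dixon's 95% critical value for the gap over the range. Chance flags about 1 group in 20 where values are normally spread. The ratio was taken on CPM without a log, where a skew to high values flags more, and it was not repeated on the log scale. The 32 are the 8 groups for each of the 3 genes and for the Mt1 share. Mt1 in LRT plantaris CTRL was 1.81 CPM in replicate 4, with the next library at 0.718. Mt1 in LRT soleus HI was 7.55 in replicate 5, with the next at 2.83. The same library was highest in Mt2A, at 18.8 with the next at 4.50. Slc30a2 in HRT plantaris CTRL was 1.16 in replicate 4, with the next at 0.453. Slc30a2 in HRT soleus HI was 16.6 in replicate 1, with the next at 8.97. The gap in the Slc30a2 values of LRT plantaris HI lies between 3 libraries on either side and is not of this kind.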

How the results depend on the processing

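The HI against CTRL values of all 3 genes kept their direction in every alternative that could be run, and the Slc30a2 difference between the CTRL muscles of HRT passed in all of them; with at least 10 counts in every library, Mt1 and Slc30a2 were not tested. When 1 replicate number or library was left out, the log2 fold change of Mt2A in LRT soleus HI ran from 0.95 to 2.10, that of Mt1 there from 1.66 to 2.64 (lowest without replicate 5), that of Slc30a2 in LRT plantaris from 4.01 to 5.07 (3.78 in limma-voom), and the Slc30a2 difference between the muscles of LRT CTRL from -2.33 to -1.83, with the call lost in 6 of these fits. The other values that changed sign were near 0 and did not pass in either fit. Their ranges without 1 replicate or library were -0.86 to 0.15 for DELTA of Mt1 in soleus, -0.45 to 0.10 and -0.72 to 0.38 for DELTA of Mt2A in plantaris and soleus, and -0.04 to 1.00 for Mt1 in LRT plantaris minus soleus response. For plantaris minus soleus in CTRL they were -0.31 to 0.16 (Mt1, HRT), -0.04 to 0.58 (Mt1, LRT) and -0.43 to 0.03 (Mt2A, HRT). For LRT minus HRT in CTRL they were -0.06 to 0.22 (Mt1, soleus), -0.29 to 0.04 (Mt2A, soleus) and -0.33 to 0.44 (Slc30a2, plantaris). With library totals Mt1 in soleus CTRL, LRT minus HRT, was -0.05. With limma-voom Slc30a2 in plantaris CTRL was 0.04, and DELTA of Mt2A was 0.06 in plantaris and -0.12 in soleus. The cause was not tested. Library totals moved the median log2 fold change of all genes in LRT plantaris from 0.013 to 0.254.

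The labels give the same replicate numbers in all groups but not what they share. Over all tested genes the deviations of same-numbered plantaris and soleus libraries had a mean r of 0.323 in LRT HI, 0.276 in HRT HI, 0.21 in LRT CTRL and 0.096 in HRT CTRL, where the lowest was -0.05, and 6, 6, 6 and 4 of 6 plantaris libraries correlated best with their own number. With the replicate block the Slc30a2 line difference in plantaris CTRL was 0.06 and DELTA of Mt2A in plantaris 0.03. With a replicate block by rat, which takes each number as a rat, the Mt2A difference between LRT CTRL muscles was 0.90 and passed (edgeR adjusted p = 0.016). It raised the calls over all genes for the muscle difference in the HI response from 370 to 1279 in LRT and from 16 to 129 in HRT. The block changed no other call of the 3 genes.

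Within CTRL libraries, an alternative chosen after the data were seen, the r of Mt1 and Mt2A was 0.72 in plantaris and 0.34 in soleus, that of Mt2A and Slc30a2 in plantaris 0.17, and the same-numbered r was -0.05 for Mt2A and 0.53 for Slc30a2. None of them passed over 12 libraries (permutation tests, adjusted p of 0.057 to 0.88). Mt1 in CTRL rests on at most 50.2 counts a library and Slc30a2 in plantaris CTRL on at most 36.2, which limits differences between CTRL groups.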
